A study of Mus musculus with 9 samples.

Results

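The genes for cytoplasmic translation initiation factors (eIF) and elongation factors (eEF) were examined in N2A cells, a mouse neuroblastoma line, after siRNA depletion of EXOSC3 or DDX1. Members were the genes whose symbol starts with Eif and a digit, with Eef1 or with Eef2, leaving out Eif2ak2 and Eif2s3y, and the rule was met by 62 of the 24318 genes listed. The study compared 3 groups of 3 libraries, each from a separately seeded plate. The scramble cells (siScramble) carry the genotype label WT, and the others are labelled EXOSC3 knockdown (siEXOSC3) or DDX1 knockdown (siDDX1). All 3 groups were transfected, are labelled Untreated for any further agent, and come from a single cell line. EXOSC3 is a subunit of the RNA exosome, the complex that processes and degrades RNA from its 3′ end, and DDX1 is a putative DEAD-box RNA helicase. Each knockdown used individual siRNAs rather than a rescued or edited line, and which EXOSC3 siRNA went into the sequenced cells is not given in the sources used here.

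Initiation begins when eIF2, loaded with GTP and the initiator tRNA, joins the small ribosomal subunit together with eIF1, eIF1A, eIF5 and the many-subunit scaffold eIF3. The eIF4 factors bind the mRNA cap and unwind the leader so that this complex can be recruited and can scan to a start codon, where eIF5B joins the large subunit. In elongation eEF1A delivers each aminoacyl-tRNA, the eEF1B subunits recharge it with GTP, and eEF2 moves the ribosome by a codon. Growing tumor cells are known for high levels of these factors, and stress lowers initiation through kinases that phosphorylate eIF2 alpha and through repressors that bind eIF4E.

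Levels are FPKM (fragments scaled to transcript length and to sequencing depth), deposited in 2 tables that each hold the libraries of 1 knockdown beside the same 3 scramble libraries, scaled separately. Every comparison was therefore made within a table. Differences were tested with limma on log2(FPKM + 1) over all genes with a mean of at least 1 FPKM in the table, and a gene was called at an adjusted p under 0.05. Shares of all genes that rose or fell count calls by adjusted p. Counts of members at an unadjusted p under 0.05 have no such share beside them, since it was not computed over all genes. Because 1 is added to each value, changes of weakly expressed members come out too small. The depth relative to scramble replicate 1, read from the step of a single fragment in low genes, lay between 0.827 and 1.20, and the absolute depth is unknown. These are rough estimates, since 19.1 to 23.0% of the low genes used lay at that step. Exosc3 was left at 15.5% ± 1.90 (SD, n = 3) of scramble in siEXOSC3 cells, and Ddx1 at 24.4% ± 2.99 (SD, n = 3) in siDDX1 cells. The remaining Ddx1 stood at 22.4, 22.9 and 27.8% of scramble in siDDX1 replicates 1, 2 and 3. The neuroblast and sympathetic markers reported here, 7 in number, were above 1 FPKM, and the summed marker list ranged from 350 to 417 FPKM in scramble and from 438 to 525 FPKM in siEXOSC3 cells. In the siDDX1 table they summed to 347 to 412 FPKM in scramble and 332 to 407 FPKM in siDDX1 cells. In siEXOSC3 cells 3 of 7 tested (Phox2a, Isl1 and Tubb3) rose. The 13 markers of other cell types summed to 5.66 to 6.88 FPKM in scramble, 8.04 to 12.1 FPKM in siEXOSC3 and 7.50 to 8.67 FPKM in siDDX1 cells, of which Pecam1 made up the most. Ptprc, Col1a2, Aqp4, Epcam and Alb were at 0 in the siEXOSC3 table, and the part of these markers in the results was not tested. In such bulk RNA, fewer cells of a type and less RNA per cell cannot be told apart.

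In scramble cells the factor genes made up 2.08% of all FPKM in the siEXOSC3 table. Eef1a1, which encodes the main form of eEF1A, was highest at 5419 ± 419 FPKM (SD, n = 3) and ranked 9 among all genes listed. It was followed by Eif1 at 1123 ± 69.4 FPKM (SD, n = 3), whose product guards start codon choice, and by Eef2 at 820.1 ± 67.0 FPKM (SD, n = 3). Eif5a, the hypusine-bearing factor that helps ribosomes through difficult peptide bonds, stood at 811 ± 24.1 FPKM (SD, n = 3). The level of Eef1g, an eEF1B subunit, was 641 ± 47.9 FPKM (SD, n = 3). Eef1a1 and Eif1 were each separated from the next gene in every library, whereas Eef2 and Eif5a overlapped. In all, 32 members had a mean of 100 FPKM or more, 22 lay between 10 and 100, 7 between 1 and 10, and 1, Eif4e1b, was listed at 0 in scramble and was not tested. Of the 61 neighbouring pairs in this order, 21 were separated in every library.

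**Figure D1:**
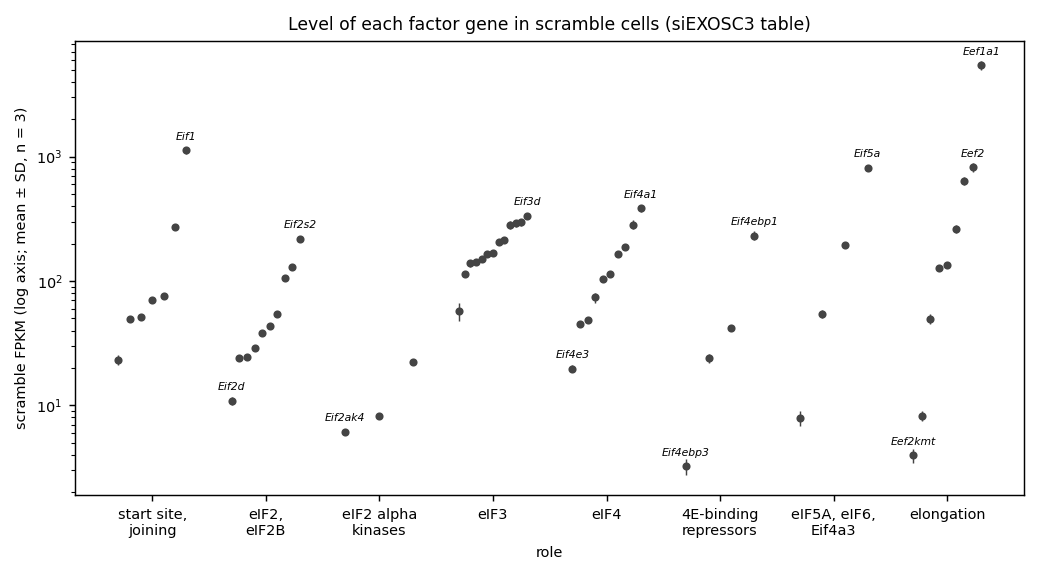
Scramble level of each factor gene with a value above 0 except Eif3j1, as mean FPKM ± SD over 3 libraries of the siEXOSC3 table on a log axis, grouped by role. Levels span from Eif4ebp3 and Eef2kmt, both under 5 FPKM, to Eef1a1 at 5419 FPKM, and the eIF3 genes lie in a narrow band.

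After EXOSC3 depletion 1 of 61 tested members rose (Eif4e3) and 7 fell (Eef1d, Eif2ak1, Eif2b1, Eif2b4, Eif3i, Eif4a3 and Eif4enif1). That is 1.64% increased and 11.5% decreased, beside 16.7% and 15.7% of all 11242 genes tested. The siEXOSC3 values lay all above the scramble values in 6 members (9.84%) and all below in 17 (27.9%), beside 23.8% and 25.9% of all genes. The share of members that fell was thus near the background, and the share that rose was under it. The median log2 fold change was -0.08 over the members and -0.01 over all genes. The number that fell depended on the library set, with 3 without siEXOSC3 replicate 1, 15 without siEXOSC3 replicate 2, and 2, 4 and 1 without scramble replicates 1, 2 and 3. The falls over all genes shifted too, to 7.72% without siEXOSC3 replicate 1 and to 5.18, 8.28 and 7.17% without scramble replicates 1, 2 and 3. Without siEXOSC3 replicate 2, 4 members rose and 15 fell, beside 21.2% and 22.3% of all genes. Without siEXOSC3 replicate 3, 2 rose, beside 15.4% of all genes.

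After DDX1 depletion 5 of 61 tested members rose (Eef1d, Eif2b3, Eif3d, Eif3g and Eif3m) and 1 fell (Eif5). That is 8.2% increased and 1.64% decreased, beside 5.61% and 5.03% of all 11104 genes tested. The siDDX1 values lay all above scramble in 18 members (29.5%), beside 17.0% of all genes, and all below in 7 (11.5%), beside 17.8%. The median log2 fold change was 0.10 over the members and -0.0006 over all genes. Quantile normalization lowered the members' median to 0.01 and gave 5 rises and 3 falls, beside 5.21% and 5.16% of all genes. Centring on the median gave 8 rises and 0 falls by limma, beside 6.73% and 4.12% of all genes. In that fit 4 members were below scramble at an unadjusted p under 0.05. Without siDDX1 replicate 3, 22 members rose (36.1%) and 5 fell (8.2%), beside 16.4% and 15.4% of all genes. Without siDDX1 replicate 1 or 2, or without scramble replicate 1 or 3, limma called 0 members in either direction, although 10 to 14 were higher and 3 to 4 lower at an unadjusted p under 0.05. Over all genes those fits called few as well, with 2.06, 1.53, 0.928 and 0.865% increased and 1.90, 1.46, 0.549 and 0.603% decreased, so that a count of 0 is near the background. Without scramble replicate 2, 1 rose and 0 fell by limma, beside 2.57% and 2.13% of all genes. In that fit 15 members were higher and 5 lower at an unadjusted p under 0.05.

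**Figure D2:**
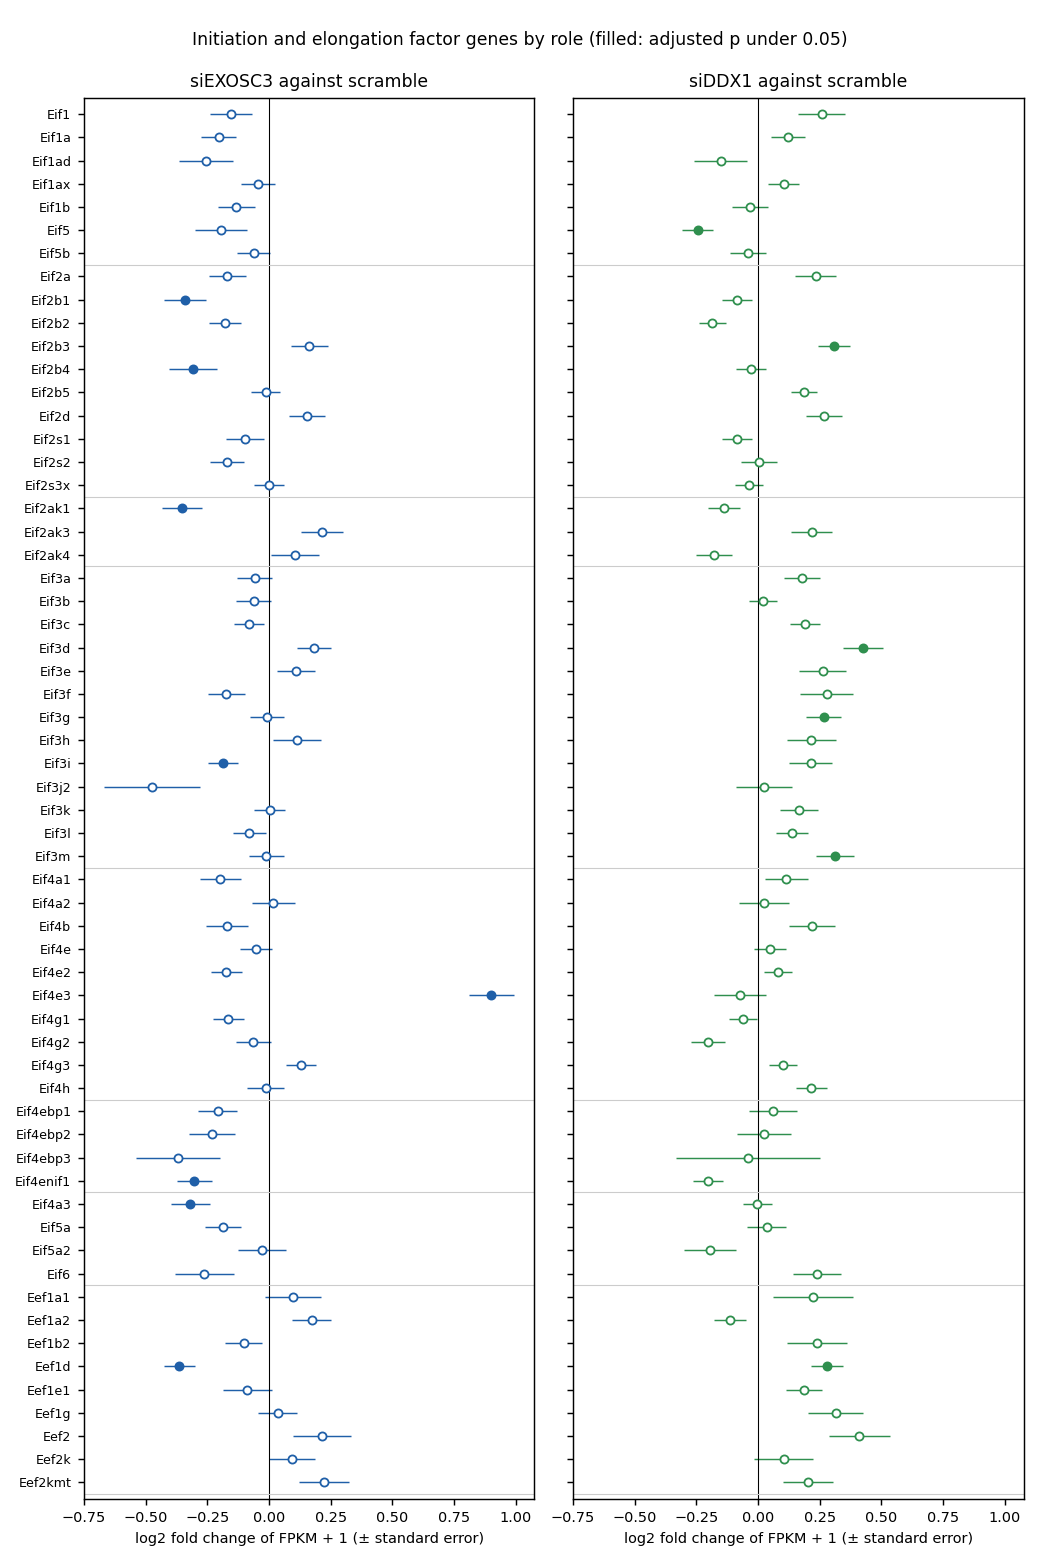
Log2 fold change of FPKM + 1 with its standard error for 60 tested members, without Eif3j1, in siEXOSC3 (left) and siDDX1 cells (right) against scramble, ordered by role from start site factors at the top to elongation factors at the bottom, with called genes filled. Eif4e3 stands apart in siEXOSC3 cells at 0.90, and in siDDX1 cells most eIF3 and elongation genes lie to the right of 0.

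The factors that choose the start codon and join the subunits gave 0 rises and 0 falls in siEXOSC3 cells by limma, beside 16.7% and 15.7% of all genes. With only 7 genes, counts of 0 say little against those shares. At an unadjusted p under 0.05, 0 were higher and 2 lower. All 7 had a log2 fold change below 0, from -0.26 to -0.04, beside a median of -0.01 over all genes. Eif1a, an eIF1A gene, came closest, with siEXOSC3 values of 62.1, 63.1 and 56.6 FPKM against 73.6, 69.8 and 66.5 FPKM in scramble. Its groups did not overlap, and the log2 fold change was -0.20 (limma adjusted p = 0.0553). In siDDX1 cells, where 5.03% of all genes fell, the call in this group was that of Eif5, which encodes the GTPase-activating protein of eIF2. Eif5 (chromosome 12 from 112776312 to 112794270 in NCBIM37, the build also called mm9, plus strand) holds the gene of the small nucleolar RNA Snora28, listed at 0. Its values were 59.9, 63.3 and 67.9 FPKM in siDDX1 cells against 77.6, 74.3 and 74.8 FPKM in scramble. All siDDX1 libraries lay below all scramble libraries, with a log2 fold change of -0.24 (SE 0.0632, limma adjusted p = 0.0456). The call was lost in 5 of 6 fits without a library, the fit without siDDX1 replicate 3 being the exception, and in 3 of 7 fits with another filter, scaling or model. In siEXOSC3 cells Eif5 stood at 65.5, 78.3 and 57.3 FPKM, a spread that overlapped scramble (log2 fold change -0.19, limma adjusted p = 0.183). Eif1, the highest of the group, was at 1394, 1346 and 1251 FPKM in siDDX1 cells against 1158, 1149.8 and 1031 FPKM in scramble. These groups did not overlap either, and the test was not passed (log2 fold change 0.26, limma adjusted p = 0.114). Eif5b, the subunit joining GTPase, had log2 fold changes of -0.06 in siEXOSC3 and -0.04 in siDDX1 cells.

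The subunit genes of eIF2 itself were not called in either knockdown in the main fits. Eif2s1, the alpha subunit that stress kinases phosphorylate, stood at 110.98, 102 and 104 FPKM in scramble, at 94.96, 109 and 93.7 FPKM in siEXOSC3 cells and, in the other table, at 96.0, 97.6 and 103 FPKM in siDDX1 cells. Knockdown and scramble values overlapped in both comparisons, with log2 fold changes of -0.10 and -0.09. Eif2s2 (beta) had -0.17 and 0.00, and Eif2s3x (gamma) 0.00 and -0.04, none of them called by limma. Every siEXOSC3 library of Eif2s2 lay below scramble, at 197, 202 and 179 FPKM against 218, 220 and 212 FPKM (limma adjusted p = 0.0865). Eif2s2 was called as lower under quantile normalization and without siEXOSC3 replicate 2.

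Of the 5 genes of eIF2B, the exchange factor that recharges eIF2 with GTP, 2 fell after EXOSC3 depletion and 1 rose after DDX1 depletion. Over all genes 15.7% fell after EXOSC3 depletion and 5.61% rose after DDX1 depletion. The complex is known to have regulatory subunits (alpha, beta and delta, from Eif2b1, Eif2b2 and Eif2b4) and catalytic subunits (gamma and epsilon, from Eif2b3 and Eif2b5). Eif2b1 (chromosome 5 from 125020222 to 125029140, minus strand) was at 18.5, 20.7 and 16.9 FPKM in siEXOSC3 cells against 24.4, 22.5 and 24.7 FPKM in scramble. Eif2b4 (chromosome 5 from 31489931 to 31495803, minus strand) was at 20.3, 22.0 and 16.8 FPKM against 24.8, 24.0 and 24.8 FPKM. In both genes every siEXOSC3 library was below every scramble library. The log2 fold change was -0.34 for Eif2b1 (SE 0.0845, limma adjusted p = 0.0181) and -0.31 for Eif2b4 (SE 0.0964, limma adjusted p = 0.0403). Eif2b1 lost its call in 3 of 6 fits without a library and Eif2b4 in 5, and in 1 and 4 of the 7 other fits (other filters, scalings or models). Snx17, which overlaps Eif2b4 on the opposite strand, had a log2 fold change of 0.44 (limma adjusted p = 0.00442), and since the libraries were nondirectional, reads of the shared stretch cannot be assigned to a strand. Eif2b2, shown to complete the complex and chosen after its values were seen, had -0.18 (limma adjusted p = 0.0621).

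The genes of the catalytic subunits were not called in siEXOSC3 cells. Eif2b3 stood at 33.5, 33.8 and 30.01 FPKM in siEXOSC3 cells against 30.8, 27.7 and 28.1 FPKM in scramble, which overlap (log2 fold change 0.16, limma adjusted p = 0.127). Eif2b5, the subunit with the exchange activity, had a log2 fold change of -0.01. After DDX1 depletion Eif2b3 (chromosome 4 from 116692007 to 116759911, plus strand) was at 37.3, 35.1 and 34.5 FPKM against 30.6, 27.5 and 27.7 FPKM. All 3 siDDX1 libraries were above scramble, and Eif2b3 rose with a log2 fold change of 0.31 (SE 0.0662, limma adjusted p = 0.0264), a call lost in 5 of 6 fits without a library and in 0 of 7 other fits. Eif2b5 was at 44.5, 43.9 and 42.1 FPKM against 37.8, 38.03 and 38.5 FPKM, without overlap, and just missed the threshold (log2 fold change 0.19, limma adjusted p = 0.0625). The regulatory genes Eif2b1, Eif2b2 and Eif2b4 had log2 fold changes of -0.09, -0.19 and -0.03 in siDDX1 cells, none of them called by limma, although Eif2b2 lay below scramble in every library (limma adjusted p = 0.0630). Whether the subunit genes differ from each other in response was not tested.

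Of the 3 kinases that phosphorylate eIF2 alpha and met the symbol rule, Eif2ak1 fell after EXOSC3 depletion, where 15.7% of all genes fell. It encodes HRI, known as the heme-regulated kinase, and lies on chromosome 5 from 144578657 to 144665125, plus strand. Its values were 17.4, 18.8 and 15.7 FPKM in siEXOSC3 cells against 21.6, 21.9 and 23.6 FPKM in scramble. The groups were well apart, and the log2 fold change was -0.35 (SE 0.0822, limma adjusted p = 0.0144). The call held in all but 1 of the 6 fits without a library, the exception being the fit without scramble replicate 3 (limma adjusted p = 0.0607). Aimp2, which overlaps it on the opposite strand, had -0.28 (limma adjusted p = 0.0474). In siDDX1 cells Eif2ak1 was at 19.7, 19.3 and 21.1 FPKM, below the scramble range of its table but not called (log2 fold change -0.14, limma adjusted p = 0.200), and Aimp2 had 0.25 (limma adjusted p = 0.0442).

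Eif2ak3, which encodes PERK, the kinase of the endoplasmic reticulum, was higher than scramble in both knockdowns without being called. It was at 9.91, 8.62 and 10.6 FPKM in siEXOSC3 cells and at 10.1, 10.1 and 8.65 FPKM in siDDX1 cells, against 7.93 to 8.46 FPKM in scramble over both tables. No library of either knockdown reached down to the scramble range of its table, with log2 fold changes of 0.21 and 0.22 (limma adjusted p = 0.0887 and 0.120). Eif2ak4, which encodes the amino acid sensing kinase GCN2, had 0.11 in siEXOSC3 and -0.18 in siDDX1 cells, neither of them called by limma.

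The largest log2 fold change among the called members was found in the cap-binding and helicase group. Eif4e3, a member of the eIF4E family of cap-binding proteins, was at 33.7, 41.7 and 38.1 FPKM in siEXOSC3 cells against 20.4, 18.2 and 20.6 FPKM in scramble. The lowest siEXOSC3 library was well above the highest scramble library. Relative to scramble, Eif4e3 reached 192% ± 20.3 (SD, n = 3), which is 0.90 as a log2 fold change (SE 0.0912, limma adjusted p = 0.000844). It was called in all 6 fits without a library and in all 7 other fits, with log2 fold changes between 0.83 and 0.98. In siDDX1 cells it stood at 16.5, 17.6 and 21.8 FPKM against 20.2, 18.0 and 20.4 FPKM, with full overlap (log2 fold change -0.07, limma adjusted p = 0.683). The annotation places Eif4e3 on chromosome 6 from 99207478 to 99616791, minus strand, a span that overlaps the transcription factor gene Foxp1 on the same strand. Foxp1 fell in siEXOSC3 cells, with means of 12.9 against 15.4 FPKM (log2 fold change -0.24, limma adjusted p = 0.0277).

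Eif4e itself, the gene of the main cap-binding protein, was not called. It stood at 101, 102 and 98.6 FPKM in siEXOSC3 cells against 110.7, 103 and 99.0 FPKM in scramble, which overlap (log2 fold change -0.05). Eif4e2, the family member 4EHP that is known as a repressor, was at 39.5, 41.2 and 38.5 FPKM against 44.4, 43.9 and 46.6 FPKM, all below scramble and not called (log2 fold change -0.17, limma adjusted p = 0.0620). Of the summed FPKM of the 3 family genes, Eif4e3 made up 21.2% ± 1.68 in siEXOSC3 cells and 11.7% ± 0.691 in scramble (SD, n = 3). The shares were 19.4, 22.6 and 21.7% against 11.6, 11.0 and 12.4%, without overlap, and 3 against 3 cannot go below p = 0.1 in an exact permutation test. In siDDX1 cells the share was 10.8% ± 1.29 (SD, n = 3) and overlapped scramble.

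**Figure D3:**
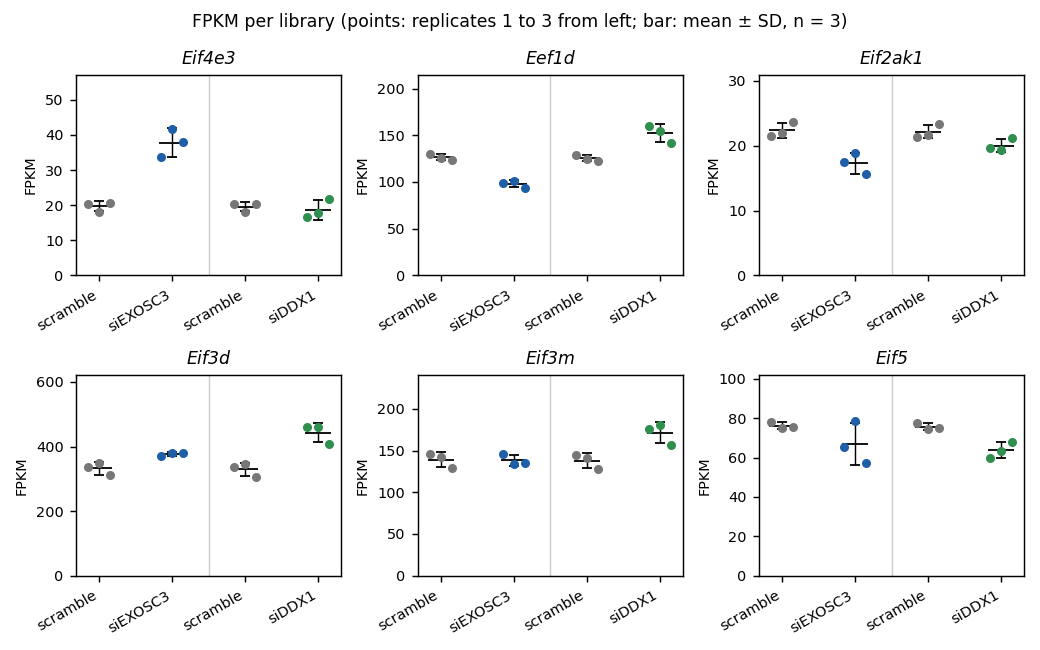
FPKM of 6 members in each library, with points for replicates 1 to 3 and bars for mean ± SD (n = 3), on linear axes that start at 0; the left pair of groups in each panel comes from the siEXOSC3 table and the right pair from the siDDX1 table. Eif4e3 is high in siEXOSC3 cells alone among these groups, and Eef1d lies below scramble in siEXOSC3 and above it in siDDX1 cells.

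The other 9 tested eIF4 genes gave 0 calls by limma in either knockdown. Over all genes 16.7% rose and 15.7% fell in siEXOSC3 cells, and 5.61% and 5.03% in siDDX1 cells. At an unadjusted p under 0.05, 3 of the 9 were lower in siEXOSC3 cells, and 2 were higher and 1 lower in siDDX1 cells. Eif4g1, the scaffold that bridges the cap and the small subunit, had log2 fold changes of -0.17 in siEXOSC3 (limma adjusted p = 0.0746) and -0.06 in siDDX1 cells. Eif4a1, the main eIF4A helicase gene, had -0.20 and 0.11, and Eif4a2, its paralog, 0.02 and 0.02. Eif4g3 made up 26.6% ± 1.11 of the summed FPKM of Eif4g1 and Eif4g3 in siEXOSC3 cells, 24.9% ± 0.466 in siDDX1 cells and 22.8% ± 1.00 in scramble (SD, n = 3). Both knockdowns lay above scramble in every library for this share.

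All 4 genes of repressors that bind eIF4E had a log2 fold change below 0 in siEXOSC3 cells, from -0.37 to -0.21, also under quantile normalization and centring on the median. The call was that of Eif4enif1, which encodes the eIF4E transporter 4E-T, a protein of processing bodies. It lies on chromosome 11 from 3102395 to 3144591, plus strand, and was at 31.7, 36.9 and 33.3 FPKM against 41.6, 42.9 and 41.6 FPKM in scramble. No siEXOSC3 library reached the scramble range, and the log2 fold change was -0.30 (SE 0.0717, limma adjusted p = 0.0154), a call lost in 4 of 6 fits without a library. In siDDX1 cells Eif4enif1 was at 34.2, 35.9 and 38.2 FPKM against 41.3, 42.6 and 41.1 FPKM. It was below scramble there too, without passing the test (log2 fold change -0.20, limma adjusted p = 0.0704). Drg1, which overlaps it on the opposite strand, had -0.07 and 0.05. Eif4ebp1, whose product is released from eIF4E when mTORC1 phosphorylates it, had -0.21 in siEXOSC3 (limma adjusted p = 0.0744) and 0.06 in siDDX1 cells.

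Eif4a3, an eIF4A relative that works in the exon junction complex rather than in initiation, also fell after EXOSC3 depletion. Its gene spans 119149677 to 119161403 of chromosome 11 on the minus strand. The siEXOSC3 libraries gave 156, 169 and 142 FPKM and the scramble libraries 203, 189 and 191 FPKM. There was no overlap, and the log2 fold change was -0.32 (SE 0.079, limma adjusted p = 0.0180), with the call lost in 3 of 6 fits without a library. In siDDX1 cells Eif4a3 was at 99.7% ± 1.10 (SD, n = 3) of scramble. Eif5a and Eif6, the latter an anti-association factor of the large ribosomal subunit, had -0.19 and -0.26 in siEXOSC3 cells and 0.03 and 0.24 in siDDX1 cells, none of them called by limma.

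The eIF3 genes, 14 in number, had a scramble level of 57.5 FPKM or more apart from Eif3j1. In siEXOSC3 cells 5 had a log2 fold change above 0 and 9 below, beside a median of -0.01 over all genes. The 1 call, beside falls in 15.7% of all genes, was the fall of Eif3i. This subunit gene (chromosome 4 from 129269204 to 129277892, minus strand) was at 148, 147 and 149 FPKM against 173, 171 and 162 FPKM in scramble. The siEXOSC3 values were tightly grouped below scramble, with a log2 fold change of -0.19 (SE 0.0596, limma adjusted p = 0.0437), a call lost in 5 of 6 fits without a library and in 3 of 7 others. In siDDX1 cells 13 of the 14 had a log2 fold change above 0 (11 under quantile normalization, 13 with centring). The median over all genes was -0.0006 in the main fit. Of the 14, 7 had all siDDX1 values above scramble and 3 rose, beside 17.0% and 5.61% of all genes.

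Those 3 were Eif3d, Eif3m and Eif3g. Eif3d, on chromosome 15 from 77789428 to 77801254, minus strand, encodes a subunit with cap-binding activity of its own on some mRNAs. It was at 461, 459.5 and 409 FPKM in siDDX1 cells against 335, 347 and 307 FPKM in scramble. The lowest siDDX1 library exceeded the highest scramble library, and the log2 fold change was 0.43 (SE 0.0808, limma adjusted p = 0.0178), a call lost in 4 of 6 fits without a library. In siEXOSC3 cells Eif3d was at 370.2, 379 and 381 FPKM against 338, 349 and 310.4 FPKM, above scramble in every library but not called (log2 fold change 0.18, limma adjusted p = 0.0764). Eif3m (chromosome 2 from 104839813 to 104857237, minus strand) was at 176, 181 and 157 FPKM in siDDX1 cells against 144, 141 and 128 FPKM. The log2 fold change was 0.31 without overlap (SE 0.0775, limma adjusted p = 0.0417). Eif3g, an RNA-binding subunit on chromosome 9 from 20698796 to 20703044, minus strand, was at 258, 250.5 and 228 FPKM against 203, 212 and 197 FPKM. Its log2 fold change was 0.27, again without overlap (SE 0.0693, limma adjusted p = 0.0469), and both Eif3m and Eif3g lost the call in 5 of 6 fits without a library, and in 2 and 3 of 7 others. In siEXOSC3 cells Eif3m and Eif3g each had -0.01.

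Within the siDDX1 group the libraries were not alike. Over the 12 eIF3 genes other than Eif3j1 and Eif3j2, the median difference from the scramble mean of log2(FPKM + 1) was 0.30 in replicate 1, 0.28 in replicate 2 and 0.08 in replicate 3, and between -0.08 and 0.06 in the scramble libraries, each set against the mean of the others. Replicates 1 and 2 thus stood apart from scramble, whereas replicate 3, the library with the most Ddx1 left and with an estimated relative depth of 1.20, lay close to it. Over all 9 elongation genes the medians were 0.30, 0.31 and 0.10 in the siDDX1 libraries and between -0.13 and 0.12 in scramble, so that replicate 3 fell inside the scramble range. Without siDDX1 replicate 3, 9 of 14 eIF3 genes and 4 of 9 elongation genes rose, beside 16.4% of all genes. The part of remaining Ddx1 or of depth in this was not tested.

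**Figure D4:**
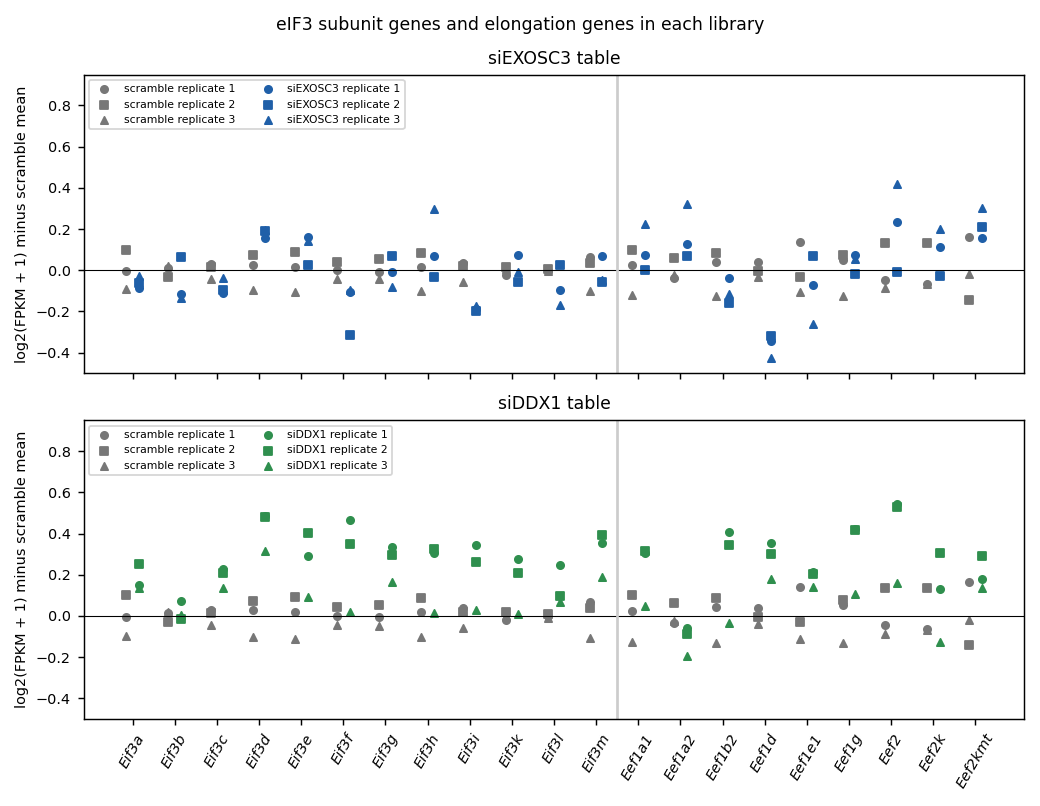
Difference of log2(FPKM + 1) from the scramble mean for 12 eIF3 genes and 9 elongation genes, with a symbol for each library of the siEXOSC3 table (top) and the siDDX1 table (bottom). In the lower panel replicates 1 and 2 of siDDX1 lie mostly above the scramble points, Eef1a2 being below them, and replicate 3 lies closer to scramble for most genes.

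Eif3j1 and Eif3j2 encode the same loosely bound eIF3 subunit and were not separated stably in these FPKM. Of the 50-base stretches in the annotated transcripts, 39.4% of those of Eif3j1 and 90.8% of those of Eif3j2 also occur in the other gene. Eif3j1 was listed at 0.06 FPKM or at 13.3 to 14.9 FPKM depending on the library. Summed over both genes, the siEXOSC3 libraries gave 45.5, 54.0 and 41.1 FPKM against 66.3, 60.7 and 59.1 FPKM in scramble. The sum was lower in every siEXOSC3 library, at 75.5% of scramble (p = 0.1 in an exact permutation test, two-sided, which 3 against 3 cannot go below). In siDDX1 cells it was 93.5% of scramble (two-sided exact permutation test, p = 0.2). The paralog pairs Eef1a1 and Eef1a2, Eif4a1 and Eif4a2, Eif5a and Eif5a2, Eif1 and Eif1b, and Eif1a and Eif1ax share 0 such stretches, as do Eif4e and Eif4e2 with Eif4e3.

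Of 9 elongation genes, 6 had a log2 fold change above 0 in siEXOSC3 cells, and 8 in siDDX1 cells (7 under quantile normalization). The medians over all genes were -0.01 and -0.0006 in the main fits. Eef1d was called in both knockdowns, lower in siEXOSC3 and higher in siDDX1 cells. It encodes eEF1B delta, a subunit of the factor that recharges eEF1A, and lies on chromosome 15 from 75725226 to 75739986, minus strand. In siEXOSC3 cells it was at 99.4, 101 and 93.7 FPKM against 129.9, 126 and 124 FPKM in scramble. The groups were far apart, the log2 fold change was -0.36 (SE 0.0617, limma adjusted p = 0.00472), and the call held in all 6 fits without a library and all 7 others. In siDDX1 cells Eef1d was at 160.4, 155 and 142 FPKM against 129, 125 and 122 FPKM. All siDDX1 libraries were above scramble, and it rose with a log2 fold change of 0.28 (SE 0.0653, limma adjusted p = 0.0344), a call lost in 5 of 6 fits without a library and in 2 of 7 others. Both comparisons share the scramble libraries, and the difference between the knockdowns was not tested.

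Eef2 had the largest log2 fold change of the elongation genes in siDDX1 cells. It was at 1183, 1169 and 907 FPKM against 786, 889.6 and 763 FPKM in scramble. Replicate 3 was only slightly above the highest scramble library, and the test was not passed (log2 fold change 0.41, SE 0.124, limma adjusted p = 0.0699). In siEXOSC3 cells Eef2 was at 962, 814 and 1093 FPKM, with overlap (log2 fold change 0.21, limma adjusted p = 0.187). Eef2k, the kinase that inactivates eEF2, had 0.09 and 0.10, and Eef1g 0.04 in siEXOSC3 and 0.31 in siDDX1 cells (limma adjusted p = 0.101). For Eef1a1 the log2 fold changes were 0.10 and 0.22, for Eef1b2, another eEF1B subunit gene, -0.10 and 0.24, none of them called by limma.

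Eef1a2, the eEF1A form known from neurons and muscle, was a small share of eEF1A expression in these cells. Its values were 148, 142 and 169 FPKM in siEXOSC3 cells against 132, 141 and 133 FPKM in scramble. In siDDX1 cells they were 128, 126 and 117 FPKM against 130.5, 139.6 and 131 FPKM. The former lay above scramble and the latter below it, with log2 fold changes of 0.17 (limma adjusted p = 0.123) and -0.11 (limma adjusted p = 0.260). Of the summed FPKM of Eef1a1 and Eef1a2, Eef1a2 made up 2.44% ± 0.146 in scramble, 2.56% ± 0.0401 in siEXOSC3 and 1.94% ± 0.106 in siDDX1 cells (SD, n = 3). The siDDX1 share was below scramble in every library, and the siEXOSC3 share overlapped.

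Many mRNAs of the translation machinery are known to start with a terminal oligopyrimidine tract, a C followed by a run of pyrimidines, that couples their translation to mTORC1. RefSeq promoter sequences, placed on NCBIM37 by exact match, were searched on the sense strand from 10 bases before to 20 after the annotated start for a C followed by at least 5 letters C or T. Such a run was present in 13 of 48 members with an entry (27.1%) and in 24.9% of 27025 genes. Among the 14 members with an entry whose siDDX1 values were all above scramble, 2 held it (14.3%), against 3 of 6 all below scramble and 8 of 28 that overlapped. By siEXOSC3 values it was held by 0 of 5 above scramble, 4 of 13 below and 9 of 30 that overlapped. These counts are small, and no difference between them was tested. They also depend on the annotated starts and the window edges. The Eef2 window, among those above scramble in siDDX1 cells, ends within a run of C and T too short to count. The Eif1 window, also among those, holds a TATA-like stretch after its annotated start, and the start in use was not measured. A missing run therefore does not show that an mRNA lacks the tract. The following windows show the 5 eIF3 and elongation genes with an entry that hold a run, each run in capitals, and then the members called in siDDX1 cells that lack it. Eef1d and Eif2b3, also called there, were not matched to an entry. Windows begin 10 bases before the annotated start, so a marked run, that of Eef1a1 included, need not lie in the mRNA. Whether a run opens the mRNA was not measured.
Eif3f, chr7:116077919-116077948, plus: tctaggCTCTCTCTCTTTCTCggcaagatg
Eif3l, chr15:78905643-78905672, plus: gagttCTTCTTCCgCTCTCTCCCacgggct
Eif3k, chr7:29766888-29766917, minus: aaccggcgctggtgctgaaagcgCCTTTCC
Eef1a1, chr9:78329512-78329541, minus: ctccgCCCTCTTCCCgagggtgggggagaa
Eef1e1, chr13:38750878-38750907, minus: gtcctagctgtgcaggccccgCCTCCCTag
Eif3d, chr15:77801235-77801264, minus: agggccatttacgacagcgctggtcgccgt
Eif3m, chr2:104857165-104857194, minus: cggtcggcgtgtttctggatcggagcgtct
Eif3g, chr9:20703015-20703044, minus: acccgggctgggagctgcgtggagttaaga
Eif5, chr12:112776302-112776331, plus: cgacgtgcatgcgagccaatgacaagagaa
The 3 eIF3 genes that rose in siDDX1 cells and Eif5, which fell, have no run of these letters in this window, and annotated starts can differ from those used in N2A cells. Eif3f had siDDX1 values of 158, 145 and 115 FPKM against 114, 117 and 110.3 FPKM (log2 fold change 0.28, limma adjusted p = 0.130), and Eif3l 179, 161 and 157 FPKM against 150.3, 151 and 149 FPKM (0.14, limma adjusted p = 0.200).

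Beyond the factors themselves, 50 other genes of translation and its control were listed, of which 49 were tested. In siEXOSC3 cells 5 rose (10.2%) and 9 fell (18.4%), beside 16.7% and 15.7% of all genes, with 6 higher and 17 lower at an unadjusted p under 0.05. In siDDX1 cells 6 rose (12.2%) and 0 fell by limma, beside 5.61% and 5.03% of all genes, with 12 higher and 4 lower at an unadjusted p under 0.05. Pdcd4, which encodes an inhibitor of the eIF4A helicase, rose in both, from 29.5 ± 4.56 to 51.3 ± 12.7 FPKM (SD, n = 3) in siEXOSC3 cells and from 29.3 ± 4.57 to 52.5 ± 11.4 FPKM (SD, n = 3) in siDDX1 cells. Its log2 fold changes were 0.76 (limma adjusted p = 0.0138) and 0.81 (limma adjusted p = 0.0231). Ddit3, a stress-response transcription factor gene induced downstream of eIF2 alpha phosphorylation, rose by 0.61 (limma adjusted p = 0.0145) and 0.56 (limma adjusted p = 0.0420) on the log2 scale. Of the other genes of its list, named after their values were seen, Ppp1r15b, which encodes a phosphatase subunit that acts on eIF2 alpha, fell by 0.28 in siEXOSC3 cells (limma adjusted p = 0.0306). Atf4, the gene of a transcription factor upstream of Ddit3, had -0.22 there, below scramble in every library but not called (limma adjusted p = 0.0913), and Ppp1r15a, another phosphatase subunit gene, -0.21 (limma adjusted p = 0.267). In siDDX1 cells Atf4 had 0.04, Ppp1r15b -0.03 and Ppp1r15a 0.15, none of them called by limma. Mcts1, whose product helps ribosomes reinitiate and recycle, rose by 0.41 in siEXOSC3 cells (limma adjusted p = 0.0110), while Denr, which encodes its partner, fell by 0.32 (limma adjusted p = 0.0263). Dph2, for an enzyme that makes the diphthamide of eEF2, fell by 0.52 (limma adjusted p = 0.0168), and Rps6kb1, for the S6 kinase downstream of mTORC1, by 0.41 (limma adjusted p = 0.0114). Dhps, whose product starts the hypusine modification of eIF5A, rose by 0.40 in siDDX1 cells (limma adjusted p = 0.0460).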

How the data were processed

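RNA from 3 replicates each of scramble, siEXOSC3 and siDDX1 N2A cells was rRNA-depleted (Ribo-zero), made into nondirectional libraries and sequenced. Per the labels and the study's methods, the authors aligned reads to mm9 with TopHat2 version 2.1.0, sorted them with SAMtools, and ran Cuffdiff version 2.2.1. They deposited FPKM per gene and library in 2 tables. The annotation and the library scaling are not given in the sources used here.

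Genes averaging 1 FPKM or more across a table's 6 libraries were tested on the log2(FPKM + 1) scale with limma (version 3.58.1, R version 4.3.3, lmFit and eBayes with a trend on intensity, no covariates). Two-sided p-values were adjusted by Benjamini-Hochberg over every gene tested, and calls were made under 0.05. An exact permutation test of 3 against 3 cannot go below p = 0.1.

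Members, roles and gene lists were chosen with earlier results of these data known. Genes were named if called (other genes of translation: at most 3 per direction, here those with the largest change), if core factors of a set list, or if among the 5 highest in scramble. Gene positions are those of GENCODE vM1 (NCBIM37, equal to mm9), in which 61 of 62 members were matched. Sequences came from RefSeq. Alternatives tried were leaving out each library, a block for the replicate number, a limit of 0.01 on the adjusted p, quantile normalization or median centring, a fit without the intensity trend, a pseudocount of 0.1, and no filter or one at 5 FPKM. Figures were drawn with matplotlib version 3.10.9.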

Additional observations from a re-analysis of the deposited data

Results flagged for a closer look

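Eef1d and Eef1a2 stood out because every library of one knockdown lay above scramble and every library of the other below it. Eef1d, an eEF1B subunit gene, had a log2 fold change of -0.36 in siEXOSC3 and 0.28 in siDDX1 cells. Eef1a2, the minor eEF1A gene in these cells, had 0.17 and -0.11. The difference between the knockdowns was not tested in either gene, and both comparisons use the same 3 scramble libraries.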

How the results depend on the processing

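The counts of called members depended on single libraries more than on the other settings, and the counts over all genes shifted without single libraries too. In siEXOSC3 cells the number that fell (7) ranged from 1 to 15 over the fits without a library, and the number that rose (1) from 1 to 4. In siDDX1 cells the number that rose (5) ranged from 0 to 22, and the number that fell (1) from 0 to 5. At an adjusted p under 0.01 the siEXOSC3 falls were 1 and the siDDX1 rises and falls 0 and 0 by limma, beside 4.27%, 0.901% and 0.747% of all genes. At an unadjusted p under 0.05 the siDDX1 counts were 21 and 5, for which no share of all genes was computed. Without a filter the siDDX1 counts were 2 rises and 0 falls by limma, beside 2.28% and 1.94% of all genes. Without an intensity trend they were likewise 2 and 0, beside 4.88% and 4.43% of all genes. At an unadjusted p under 0.05 these fits gave 19 and 17 rises and 5 and 5 falls among members. Centring on the median gave 8 and 0, beside 6.73% and 4.12% of all genes. The members at an unadjusted p under 0.05 were then 24 and 4. Quantile normalization gave 2 rises in siEXOSC3 cells (beside 15.1% of all genes), 3 falls in siDDX1 cells (beside 5.16%) and a siDDX1 median log2 fold change of 0.014. The other counts and medians stayed within 1.5 times, or within the spread of the libraries, under these settings. The cause of these shifts was not tested, apart from the stricter threshold and the lower number of libraries, which are part of the settings themselves.

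With the replicate number as a block (replicate block), 4 members fell in siEXOSC3 and 15 rose in siDDX1 cells, beside 9.42% and 9.77% of all genes (15.7% and 5.61% without the block). Deviations of same-numbered libraries correlated at 0.03, -0.31 and -0.13 in the siEXOSC3 table, and those of differently numbered ones between -0.17 and 0.26. In the siDDX1 table same-numbered libraries gave -0.01, 0.38 and 0.37, and differently numbered ones between -0.38 and 0.15. Whether the numbers pair the samples was not tested. Of 518 values of single named genes under the alternatives, 472 stayed on the same side of the threshold in siEXOSC3 and 457 in siDDX1 cells. No called value changed sign, whereas 17 values of 6 genes and 20 of 10 genes, none of them called, did. FPKM hold no read numbers, so no counting interval could be given.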
